A study of Rattus norvegicus with 54 samples.

Results

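The border zone of infarcted rat hearts that carried a cell sheet was compared with the border zone of infarcted hearts left untreated. The members are the 6 border zone libraries of the group labelled MI+Cell Sheet and the 6 of the group labelled MI, 12 of the 54 libraries of the series, and they were chosen by those labels and by the tissue region. All animals were female athymic rats of the strain F344/NJcl-rnu/rnu, aged 8 weeks, which lack a thymus and so most T cells. In both groups the left anterior descending coronary artery had been ligated, and the hearts were taken 1 week later. In the treated group a bi-level sheet of human endothelial progenitor cells (EPC) and human smooth muscle cells (SMC) had been laid on the surface of the ischemic area. A sham group of 6 hearts, opened without ligation, gives side values. The border zone is the lateral wall of the left ventricle below the ligation stitch, the infarct zone the anterior wall and the remote zone the septum. Libraries that share a group carry the tag technical replicate, whereas the study's methods describe 6 hearts in each group, so that p-values measure the spread between these libraries, which may in part be technical. Only rat genes were counted, so transcripts of the human cells have no entry of their own, and how many human reads fell on rat genes was not tested.

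After coronary occlusion, the border zone holds surviving cardiomyocytes beside inflammatory cells, activated fibroblasts and growing vessels. In the first weeks macrophages clear debris, fibroblasts lay down collagen, and new capillaries mature as pericytes and smooth muscle cells, together called mural cells, are recruited to the endothelium and a basement membrane of collagen IV, laminin and perlecan is built. Notch3 is the Notch receptor of mural cells, and its ligands are presented by the endothelium.

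The libraries held between 16427859 and 22523580 counts on genes. Levels below are CPM, counts divided by library size, with sizes scaled by trimmed mean of M-values (TMM) factors, so that a level depends on what else the tissue holds. In these bulk samples, fewer cells of a type and less RNA per cell cannot be told apart. Levels of different genes are not corrected for length and are not compared with each other.

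Several libraries stood apart in their makeup. Cell sheet replicate 1 nearly lacked the 15 cardiomyocyte markers, with a mean of 3.80 log2 CPM over the list against 9.66 to 11.4 in the other 5 cell sheet libraries and 8.64 to 11.3 in the untreated MI libraries. Its summed level of these markers was 273 CPM, where the median of its group was 34032 CPM. Many of the calls and list counts described below that changed without it are given both ways, but not all. Markers of fat cells (the adipocyte list) were high in 4 cell sheet libraries (4.62 to 6.60 log2 CPM over 12 genes), lower in cell sheet replicates 4 and 3 (2.39 and 0.90) and between 0.67 and 3.54 in untreated MI. Mast cell markers were at 3.78 to 5.54 log2 CPM in 5 cell sheet libraries, replicate 4 among them, at 0.71 in replicate 3 and at 1.42 to 3.43 in untreated MI. Genes of lung, such as the surfactant gene Sftpc, were present in cell sheet replicate 4 (4.23 log2 CPM over 7 genes) and in untreated MI replicates 3 and 2 (4.42 and 1.49) and at -0.67 or below in the other 9 libraries. Among the sham libraries replicate 5 stood apart. Its summed cardiomyocyte markers were at 34293 CPM against 98808 to 108876 CPM in the other 5, and Lyz2 at 10453 against 129 to 309 CPM. Several ends of sham ranges below are its values, such as 4.85% for ribosomal protein genes, 997 CPM for Rps27a, 213 CPM for Gja1 and 61.4 CPM for Cat. The part of these differences in the results was not tested beyond the values given with and without them.

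**Figure D1:**
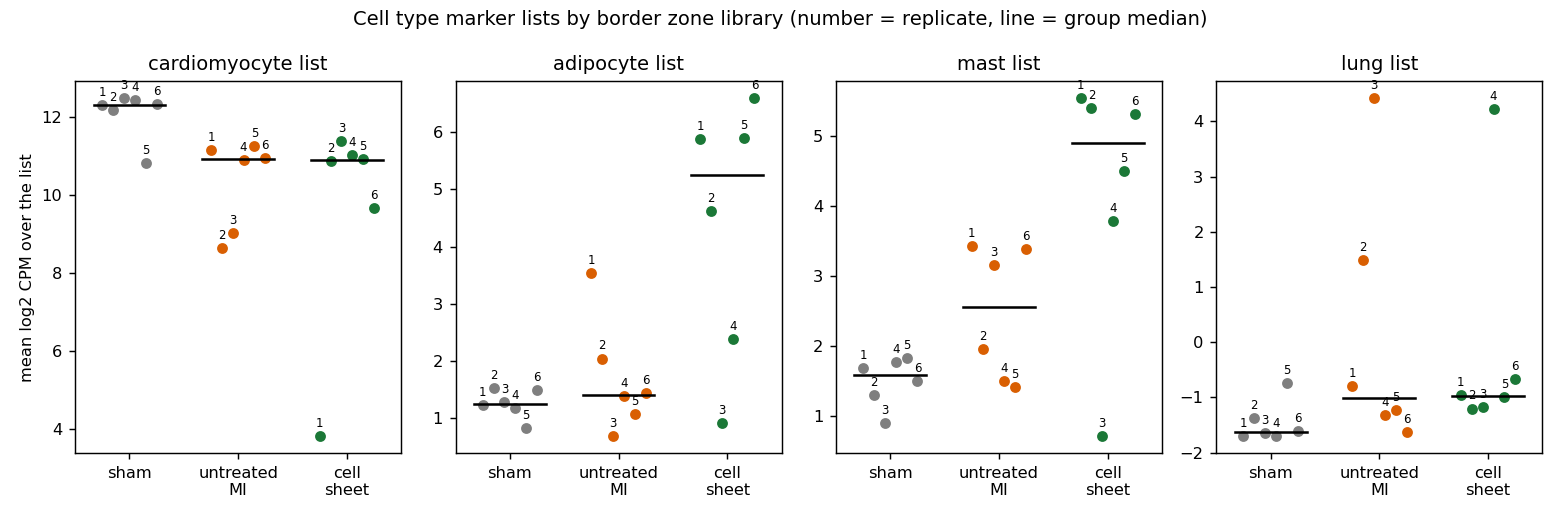
Mean log2 CPM over 4 cell type marker lists (vertical axis) in each border zone library of the sham, untreated MI and cell sheet groups. Each point is a library with its replicate number and each line a group median. Cell sheet replicate 1 sits at 3.80 for the cardiomyocyte list, cell sheet replicate 3 at 0.90 for the adipocyte list and 0.71 for the mast cell list, and cell sheet replicate 4 and untreated MI replicate 3 above 4 for the lung list.

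The main question was which genes differed between the treated and the untreated border zone. Of 16272 genes tested, 2922 passed an adjusted p of 0.05 (18.0%), of which 1379 were higher in cell sheet hearts (8.47% of those tested) and 1543 lower (9.48%). The change was larger than 1 on the log2 scale for 247 of the higher and 188 of the lower genes. For 1568 genes (9.64%) the 6 libraries of one group did not overlap with the 6 of the other, 693 higher and 875 lower. Without cell sheet replicate 1, 3083 of 16423 genes passed (18.8%), and 2568 of them were among the 2922. When library sizes were used without TMM factors, 2847 genes passed, of which 57.3% were higher against 47.2% with the factors, so that the balance of the directions depends on the scaling. With the adipocyte marker score as a covariate 1313 genes passed, 1082 of them among the 2922. Leaving out cell sheet replicate 2 gave 1941 calls.

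The lists of genes differed in how many members rose and how many fell. Among those with rises and no falls were 5 of 6 collagen VI chains, 5 of 12 mural cell markers, 9 of 28 genes of lipid storage and synthesis, 3 of 11 laminins, 4 of 16 Notch and 6 of 30 Wnt genes. Among those with falls and no rises were 66 of 74 cytosolic ribosomal proteins, 22 of 37 proteasome subunits, 9 of 37 subunits of respiratory complex I, 13 of 43 of complexes II to V, 3 of 11 T and NK cell markers and 5 of 38 chemokines and cytokines. Of 26 antioxidant, heme and iron genes 7 fell and 1 rose. For comparison, 8.47% of all genes tested rose and 9.48% fell. The bar plot of the process lists gives the share of each list that passed the test in each direction.

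**Figure D2:**
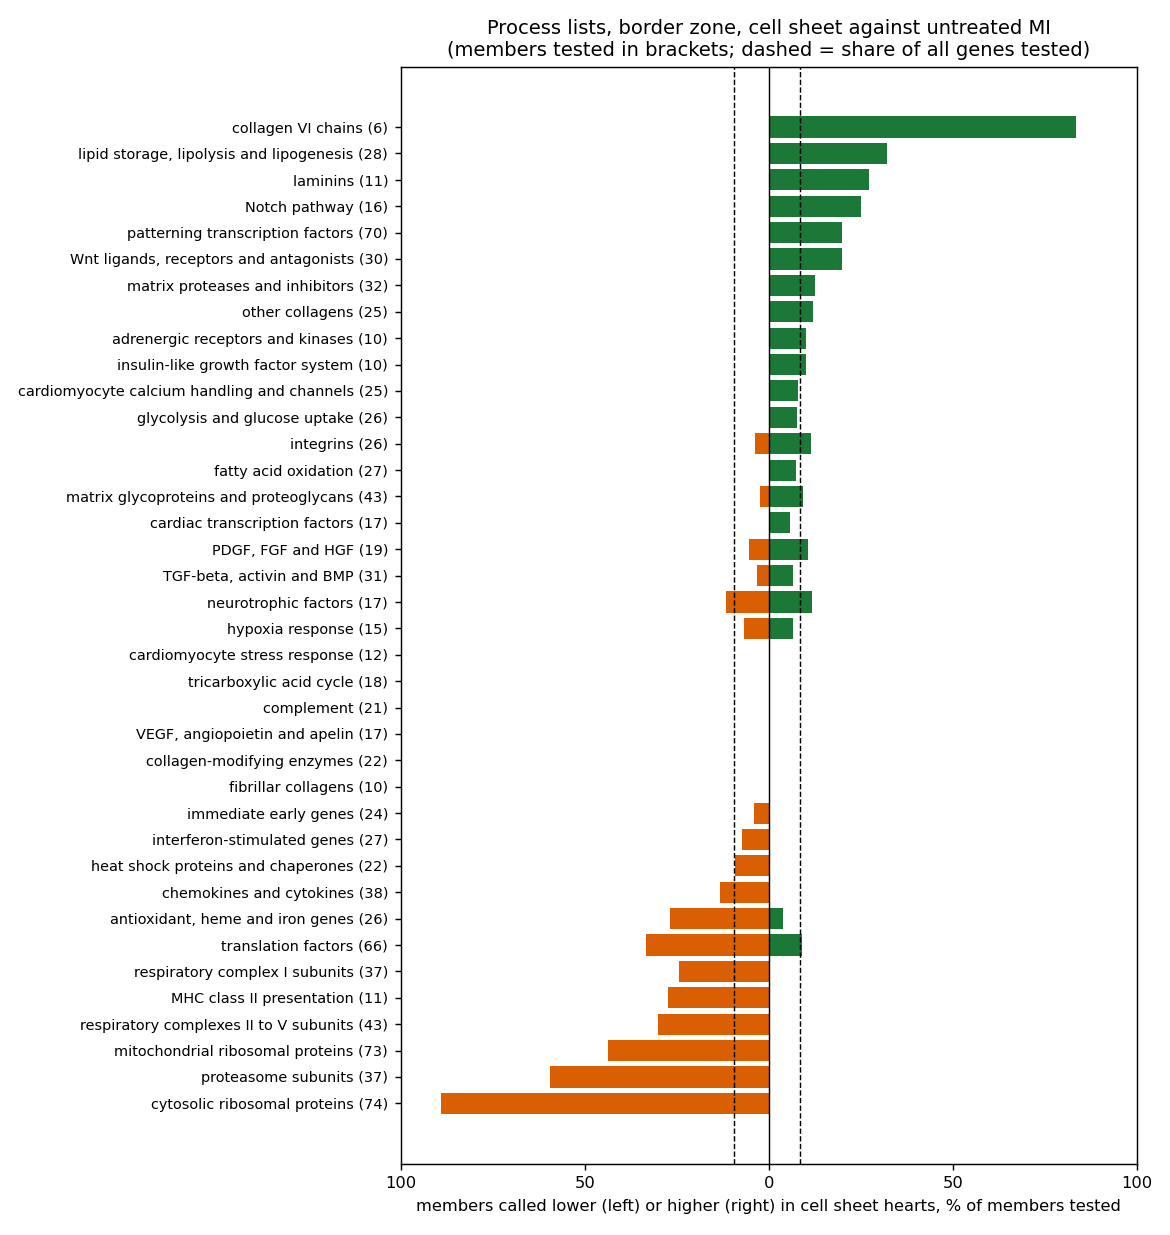
Share of the tested members of each process list (percent, horizontal axis) that were higher (right, green) or lower (left, orange) in cell sheet than in untreated MI border zones at an adjusted p of 0.05. Dashed lines mark the shares of all genes tested, 8.47% higher and 9.48% lower, and the number tested stands in brackets. Cytosolic ribosomal proteins reach furthest to the left (66 of 74) and collagen VI chains furthest to the right (5 of 6).

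The sequences upstream of a few of these genes are printed because the share of promoters with the letters CCGGAAG was not the same among the genes that fell and those that rose. Each is the 100 bases before the annotated start in RefSeq (build GRCr8, which is not the build of the counts), 5′ to 3′ in the direction of the gene, with CCGGAAG (the core of an ETS-type site) and GGGCGG (a GC box) on either strand in capitals. The genes that fell are Psmb4, a proteasome subunit, Sec61g, a subunit of the channel that moves proteins into the endoplasmic reticulum, Slirp, which stabilizes mitochondrial messenger RNA, and Mrps18c, a protein of the mitochondrial ribosome.
Psmb4, chr2:185134562-185134661, minus strand: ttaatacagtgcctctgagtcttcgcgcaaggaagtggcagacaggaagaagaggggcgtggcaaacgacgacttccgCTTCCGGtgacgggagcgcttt
Sec61g, chr14:95119459-95119558, minus strand: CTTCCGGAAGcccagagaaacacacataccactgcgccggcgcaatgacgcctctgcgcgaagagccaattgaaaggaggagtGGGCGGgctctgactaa
Slirp, chr6:112819584-112819683, plus strand: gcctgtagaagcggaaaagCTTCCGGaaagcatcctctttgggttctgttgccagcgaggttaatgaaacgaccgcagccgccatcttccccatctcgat
Mrps18c, chr14:9122907-9123006, minus strand: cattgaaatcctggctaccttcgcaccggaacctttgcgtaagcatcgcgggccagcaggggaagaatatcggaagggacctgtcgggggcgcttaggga
The genes that rose are the receptor Notch3, the basement membrane genes Hspg2 (perlecan) and Lama5 (laminin alpha 5), and Itga3 (integrin alpha 3, which binds laminin).
Notch3, chr7:11834586-11834685, minus strand: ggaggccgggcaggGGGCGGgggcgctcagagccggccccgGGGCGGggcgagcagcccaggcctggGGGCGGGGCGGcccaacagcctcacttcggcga
Hspg2, chr5:154960746-154960845, plus strand: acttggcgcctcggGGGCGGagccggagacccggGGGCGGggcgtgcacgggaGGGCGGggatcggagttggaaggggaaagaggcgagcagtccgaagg
Lama5, chr3:187695975-187696074, minus strand: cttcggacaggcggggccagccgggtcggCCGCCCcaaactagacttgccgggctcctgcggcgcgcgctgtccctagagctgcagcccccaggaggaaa
Itga3, chr10:80518902-80519001, minus strand: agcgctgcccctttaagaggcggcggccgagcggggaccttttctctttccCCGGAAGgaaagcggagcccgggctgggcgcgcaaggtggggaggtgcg
The window of Sec61g holds CCGGAAG on both strands in overlapping letters, and that of Mrps18c holds neither motif, whereas Notch3 has 4 GC boxes and Hspg2 has 3. In the 250 bases before the start, CCGGAAG was found on either strand in 22.0% of 1184 promoters of genes that were lower, 10.4% of 1064 promoters of genes that were higher and 12.8% of 9744 promoters of genes that did not pass, beside 7.74% of all 27457 promoters in the table. The share was 27.3% for 33 proteasome promoters and 27.1% for 59 promoters of cytosolic ribosomal proteins. GGGCGG was found in 56.9% of the lower, 60.7% of the higher and 53.9% of the other promoters, and in 32.4% of all promoters in the table. The median G and C content was 57.6% for lower and 62.0% for higher genes. TATAAA and TGGGAA were also searched, and TATAAA was in 7.18% of the lower, 5.36% of the higher and 7.54% of the other promoters, TGGGAA in 21.7%, 17.1% and 20.6%. These are descriptions of letters in a window and were not tested, and 11992 of the 16272 genes had a promoter in the table.

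Genes are named below by a fixed rule, except Adam19, Tnnt2, Rgs5, Cspg4, Notch1, Col6a6, Fzd4, Tbx2, Sox17, Pparg, Fasn, Cxcl16, Eif2s2, Eif4ebp2, Eif4g1, Cox6c, Prdx1, Wnt5a, Gpx1, Psmd1, Psmd2, Ogdh, Xirp1, Flnc, Slc27a1, Cpt1a, Acsl1, Ppara, Pfkfb1, Lcn2 and Lamb2, which were chosen after their values were seen.

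Part of the mural cell markers were higher in the treated border zone. Of 12 markers 5 rose and none fell, and 9 had a positive and 3 a negative difference. The median log2 fold change was 0.47 (cell sheet over untreated MI, here and below) against -0.0044 over all genes tested. Notch3 was at 182 to 298 CPM (median 233) in cell sheet and 31.5 to 104 CPM (median 91.5) in untreated MI libraries. The groups did not overlap, and every treated library was above all 6 sham libraries as well, which were at 27.8 to 70.1 CPM (median 59.7). The difference was 1.53 ± 0.25 (log2 ± SE, adjusted p = 0.00187), and 1.46 ± 0.25 without cell sheet replicate 1. The study had named Notch3 from the same libraries, so that its direction is not independent evidence.

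Myh11, the myosin heavy chain of smooth muscle, was at 102 to 161 CPM (median 119.5) in cell sheet and 20.6 to 72.9 CPM (median 52.9) in untreated MI libraries. Again no treated library fell into the range of the untreated ones (log2 fold change 1.37 ± 0.26, adjusted p = 0.00443). Abcc9, a subunit of the potassium channel of pericytes and heart muscle, rose by 1.30 ± 0.27 (adjusted p = 0.00638), with medians of 308 against 125 CPM, and the sham median was 287 CPM. Rgs5 and Cspg4, both pericyte markers, rose by 0.63 ± 0.12 and 0.70 ± 0.17 without overlap (adjusted p = 0.00429 and 0.0141). Tagln and Acta2, contractile genes that myofibroblasts also use, did not pass the test. Tagln was at 152 to 295 CPM (median 205) and 66.6 to 702 CPM (median 345), a log2 fold change of -0.68 ± 0.41 (adjusted p = 0.283), and Acta2 was close to 0 at -0.08 ± 0.37 (adjusted p = 0.914), whose sign turned in several alternative fits. With the adipocyte score as a covariate the same number of mural genes, 5 of 12, was higher, and the log2 fold change of Notch3 was 1.51 (adjusted p = 0.0274) and that of Myh11 1.53 (adjusted p = 0.0284).

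Of 16 Notch pathway genes 4 rose and none fell. Beside Notch3 these were the receptors Notch1 and Notch2 and the ligand Jag2. Jag2 was at 50.6 to 60.3 CPM (median 53.1) in cell sheet and 29.3 to 47.2 CPM (median 35.4) in untreated MI libraries, without overlap (0.57 ± 0.12, adjusted p = 0.00698). Notch2 rose by 0.61 ± 0.16 and Notch1 by 0.40 ± 0.13 (adjusted p = 0.0190 and 0.0434), and Notch1 kept its call in 5 of the 12 fits that each left out 1 library. The Hey and Hes targets in the list did not pass. When the adipocyte score was a covariate 2 of the 16 passed, Notch3 and Jag2 (adjusted p = 0.0387 for Jag2), and Notch2 had an adjusted p of 0.281.

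Endothelial genes moved in both directions, with 1 of 13 markers higher and 1 lower (15.4% called, beside 18.0% of all genes tested). Cdh5, the cadherin of endothelial junctions, was at 204 to 372 CPM (median 263) in cell sheet and 129 to 191 CPM (median 144) in untreated MI libraries, without overlap (0.82 ± 0.15, adjusted p = 0.00339, and 0.64 with an adjusted p of 0.0608 with the adipocyte score as a covariate). Cldn5, the claudin of tight junctions, was lower, at medians of 52.9 against 79.9 CPM (-0.62 ± 0.18, adjusted p = 0.0303), and lost its call in 6 of 12 fits that left out a library. Pecam1 was at medians of 317 against 269 CPM (0.32 ± 0.14, adjusted p = 0.133), and the other endothelial markers, 13 tested in all, did not pass either. None of the 17 genes of the vascular endothelial growth factor (VEGF), angiopoietin and apelin list passed in edgeR (3 at an unadjusted p under 0.05, and 3 called by DESeq2), and Vegfa itself was at 195 to 583 CPM (median 433) and 196 to 456 CPM (median 404) (0.18 ± 0.29, adjusted p = 0.714). Pdgfb, which endothelium secretes to draw pericytes, rose by 0.53 ± 0.12 (adjusted p = 0.00919) without overlap, and its adjusted p with the adipocyte score was 0.0823.

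Cxcl12, a chemokine that attracts progenitor cells and that the study also named, was at 219.8 to 854 CPM (median 498) in cell sheet and 145 to 434 CPM (median 298) in untreated MI libraries. The ranges overlapped, and the log2 fold change of 0.73 ± 0.37 did not pass (adjusted p = 0.188). Its receptor Cxcr4 fell by 0.68 on the log2 scale (adjusted p = 0.0187), with medians of 40.4 against 60.5 CPM. Cxcr4 is carried mainly by leukocytes, and its sham median was 31.4 CPM.

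**Figure D3:**
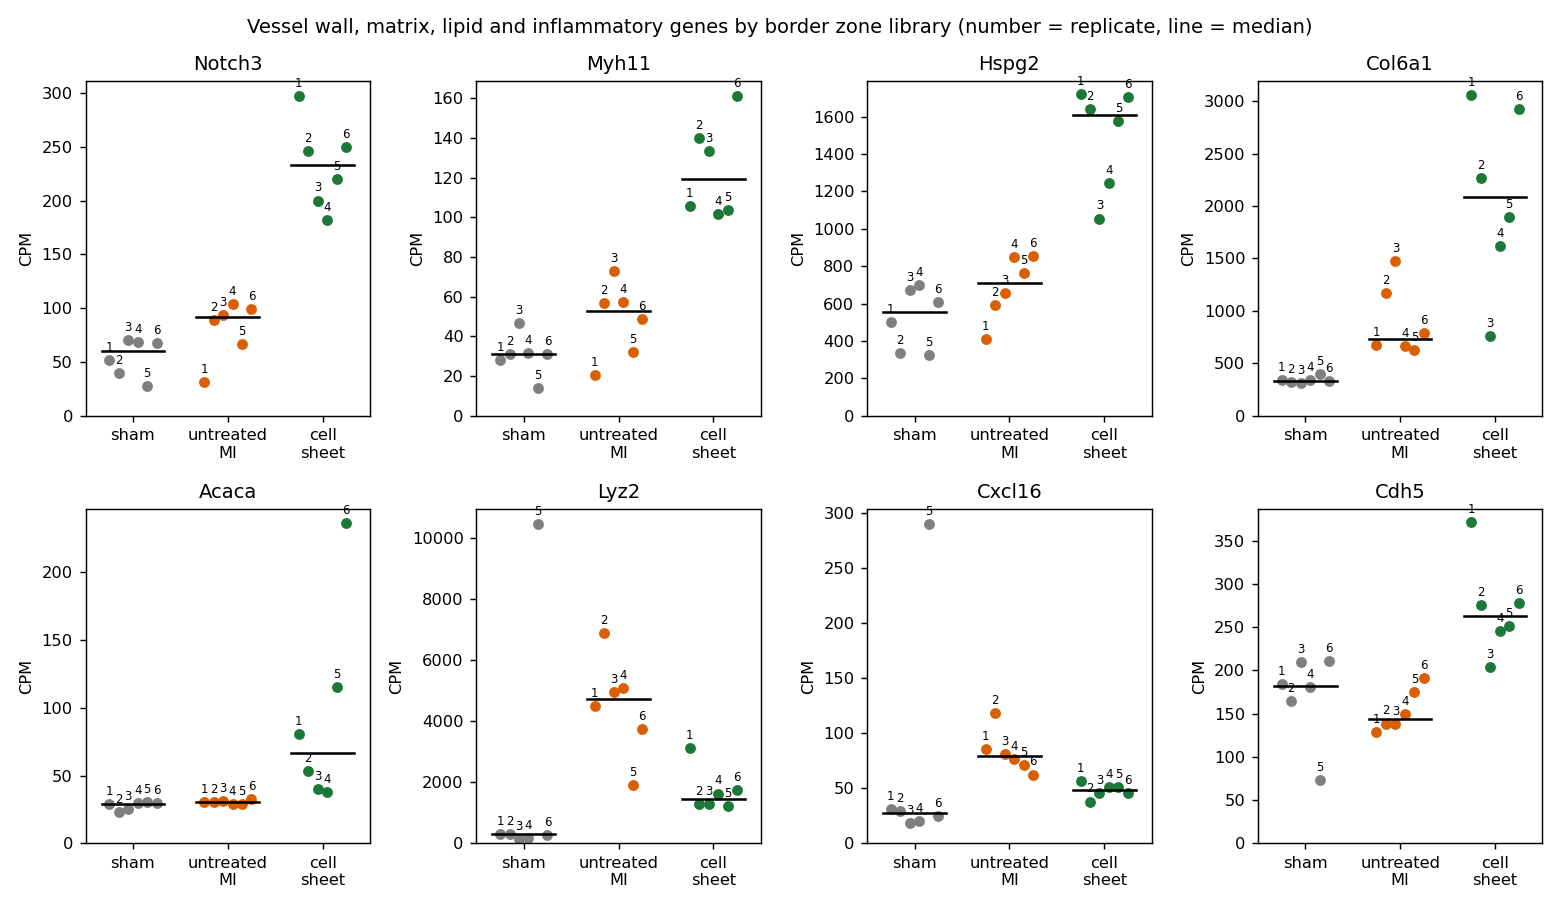
Level in CPM (vertical axis, from 0) of 8 genes of the vessel wall, the matrix, lipid synthesis and inflammation in each border zone library of the sham, untreated MI and cell sheet groups. Points are libraries with their replicate numbers and lines are medians. Notch3, Myh11, Hspg2 and Cdh5 do not overlap between cell sheet and untreated MI, Col6a1 overlaps through cell sheet replicate 3 (758 CPM), and Acaca is at 29.1 to 32.5 CPM in every untreated library.

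Of the genes whose products build basement membranes, perlecan, 3 laminin chains and 2 collagen IV chains rose, while 8 of 11 laminins did not pass. Hspg2, which encodes perlecan, was at 1055 to 1720.5 CPM (median 1608) in cell sheet and 413 to 856 CPM (median 711) in untreated MI libraries. No value overlapped, and the log2 fold change was 1.12 ± 0.20 (adjusted p = 0.00343). Of 11 laminins 3 rose, namely Lama5 (1.07 ± 0.19, adjusted p = 0.00315), Lama3 (2.03 ± 0.47, adjusted p = 0.0112) and Lamc3 (2.09 ± 0.48, adjusted p = 0.0116). Lama5 was again without overlap, at 145 to 176 CPM (median 162) against 43.8 to 100.4 CPM (median 79.5), whereas Lamc3 was a low gene with medians of 4.12 against 0.778 CPM. Another chain, Lamb2, passed when cell sheet replicate 1 was left out (adjusted p = 0.110 with and 0.0408 without it). Given the adipocyte score as a covariate Lama5 was the laminin that passed (adjusted p = 0.0204), while the log2 fold changes were 0.97 for Lama3 (adjusted p = 0.307), 1.33 for Lamc3 (adjusted p = 0.191) and 0.94 for Hspg2 (adjusted p = 0.0595).

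The list of other collagens, which holds the collagen IV chains, had 3 of 25 genes higher (12%, beside 8.47% of all genes tested) and none lower. Col4a2 was at 1059 to 1986 CPM (median 1549) in cell sheet and 389 to 964 CPM (median 864) in untreated MI libraries (0.94 ± 0.22, adjusted p = 0.0132). Col4a1 rose by 0.92 ± 0.27 (adjusted p = 0.0346), but not without cell sheet replicate 1 (adjusted p = 0.0578). Both were lowest in untreated MI replicate 1, which was at 478 CPM for Col4a1 where the other 5 were at 1150.1 to 1393 CPM. Neither passed with the adipocyte score as a covariate (log2 fold change 0.72, adjusted p = 0.257 for Col4a1 and 0.85, adjusted p = 0.114 for Col4a2). Among the integrins, the receptors of these matrix proteins, 3 of 26 rose and 1 fell (15.4% called, beside 18.0% of all genes tested). Itga3 was without overlap at medians of 21.6 against 10.1 CPM (1.06 ± 0.15, adjusted p = 0.000984), and Itgb4 rose by 1.36 ± 0.39 (adjusted p = 0.0294). The call of Itgb4 held in 3 of the 12 fits that left out a library and was lost without cell sheet replicate 1 (adjusted p = 0.0503), and with the adipocyte score its log2 fold change was 0.14 (adjusted p = 0.804). Itgae, an integrin of lymphocytes and dendritic cells in epithelia, was lower in every treated library (-0.70 ± 0.11, adjusted p = 0.00133).

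Collagen VI forms beaded filaments that tie the basement membrane to the interstitial matrix, and 5 of its 6 chains rose. The study had singled out collagen VI from the same libraries, so that its direction is not independent evidence. Col6a1 was at 758 to 3054 CPM (median 2083) in cell sheet and 631 to 1473 CPM (median 733) in untreated MI libraries. Cell sheet replicate 3, at 758 CPM, lay within the untreated range and the other 5 treated libraries above it, and the sham libraries were at 309 to 397 CPM (median 335). The log2 fold change was 1.22 ± 0.34 (adjusted p = 0.0261). Col6a2 (1.11 ± 0.32, adjusted p = 0.0333) and Col6a3 (1.21 ± 0.35, adjusted p = 0.0316) had similar values. The calls of Col6a1, Col6a2 and Col6a3 held in 6, 4 and 7 of the 12 fits that left out a library.

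Of the other chains, Col6a6 rose by 0.83 ± 0.19 (adjusted p = 0.0126), with medians of 60.2 against 33.1 CPM. Col6a5 was at 0.340 to 37.6 CPM (median 11.7) and 0.0518 to 4.53 CPM (median 0.647), a log2 fold change of 3.65 ± 1.04 (adjusted p = 0.0302) that rests on a few counts in the untreated libraries. The call of Col6a5 held in 4 of the 12 fits that left out a library and that of Col6a6 in all 12. Without cell sheet replicate 1, 3 of the 6 chains passed, and Col6a2 did not (adjusted p = 0.0557). With the adipocyte score as a covariate only Col6a6 passed, and the log2 fold change of Col6a1 was 0.52 (adjusted p = 0.447). Cell sheet replicate 3, the lowest treated library for Col6a1, was also the lowest for the adipocyte list, and the part of fat tissue in the collagen VI values was not tested further.

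Fibrillar collagens were above the sham level in both infarcted groups and did not pass the test between them. None of 10 passed in edgeR (3 at an unadjusted p under 0.05, and 2 called by DESeq2), with a median log2 fold change of 0.55. Col1a1, which the study named along with Col12a1, was at 7328 to 17543 CPM (median 11699) in cell sheet and 3198 to 12754 CPM (median 5765) in untreated MI libraries (0.83 ± 0.36, adjusted p = 0.129), against 534 to 821 CPM (median 686) in sham. Col3a1 (0.55 ± 0.30, adjusted p = 0.226) and Col12a1 (0.83 ± 0.56, adjusted p = 0.332) did not pass either. The call depended on which libraries entered, since without the 3 libraries that held lung genes Col1a1 and Col12a1 passed (adjusted p = 0.0365 and 0.0260) and 3 of 10 fibrillar collagens did. Postn, which encodes periostin of activated fibroblasts, was at medians of 2225 against 1851 CPM (-0.05 ± 0.43, adjusted p = 0.949), and none of the 9 fibroblast and 9 myofibroblast markers passed in edgeR (4 and 0 at an unadjusted p under 0.05, and 1 and 0 called by DESeq2).

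Among the other matrix genes, Fbn2, a fibrillin of growing elastic fibers, was higher at medians of 48.3 against 11.3 CPM (1.56 ± 0.35, adjusted p = 0.0104), while it was at 0.765 to 2.94 CPM (median 1.89) in sham. Ccn5, a secreted matricellular protein, was lower at 41.1 to 165 CPM (median 82.0) against 55.4 to 424 CPM (median 282) (-1.54 ± 0.44, adjusted p = 0.0311), a call lost without cell sheet replicate 1 (adjusted p = 0.0529). In all, 4 of 43 glycoproteins and proteoglycans rose and 1 fell (11.6% called, beside 18.0% of all genes tested), or 3 and 0 without that library. Of 32 proteases and inhibitors 4 rose (12.5%, beside 8.47% of all genes tested), which were Adam19 and the secreted proteases Adamts7, Adamts9 and Adamts12. Adamts7 was at 47.6 to 63.7 CPM (median 60.1) and 22.8 to 37.8 CPM (median 32.4) without overlap (0.86 ± 0.12, adjusted p = 0.000999), and Adamts12 rose by 1.05 ± 0.25 (adjusted p = 0.0138). Adam12, a protease that the study also named, was at 40.2 to 405 CPM (median 188) and 36.4 to 229.7 CPM (median 57.8), and its log2 fold change of 1.17 ± 0.58 did not pass (adjusted p = 0.186) except without the 3 libraries that held lung genes (2.23, adjusted p = 0.0305).

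Secreted guidance and growth factors shifted in both directions. Ndnf, a secreted factor of neurons and vessels that the study also named, was at 1.26 to 40.4 CPM (median 23.3) in cell sheet and 0.238 to 6.42 CPM (median 4.20) in untreated MI libraries (2.63 ± 0.76, adjusted p = 0.0313). Cell sheet replicate 3 was the low value at 1.26 CPM, and the call was lost with the adipocyte score as a covariate (adjusted p = 0.435). Slit3, a ligand of Robo receptors, rose by 1.63 ± 0.42 (adjusted p = 0.0198), and by 0.29 with that score (adjusted p = 0.620). Metrn, a neurotrophic factor, was lower without overlap, at medians of 11.4 against 22.2 CPM (-1.16 ± 0.26, adjusted p = 0.00922). Of 19 genes of the platelet-derived, fibroblast and hepatocyte growth factor list 2 rose, Pdgfb and Fgf7 (1.43 ± 0.39, adjusted p = 0.0252), and Hgf fell by 0.48 on the log2 scale (adjusted p = 0.0486). In all 15.8% of this list passed, beside 18.0% of all genes tested. The call of Hgf held in 2 of the 12 fits that left out a library and was lost without cell sheet replicate 1 (adjusted p = 0.0767), and Fgf7 lost its call with the adipocyte score (adjusted p = 0.310). The insulin-like growth factor receptor Igf1r rose by 0.79 ± 0.16 (adjusted p = 0.00634) without overlap.

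Of 30 Wnt genes 6 rose and none fell. Fzd4, a receptor of endothelial cells, was at 98.7 to 168 CPM (median 136) in cell sheet and 53.2 to 91.1 CPM (median 73.3) in untreated MI libraries, without overlap (0.92 ± 0.18, adjusted p = 0.00519). The secreted antagonist Sfrp1 rose by 1.29 ± 0.28 (adjusted p = 0.00794), the ligands Wnt5a by 1.05 ± 0.26 (adjusted p = 0.0173) and Wnt2b by 1.72 ± 0.51 (adjusted p = 0.0360), and the feedback target Axin2 by 1.12 ± 0.29 (adjusted p = 0.0196). The members that rose thus include activators and inhibitors of the pathway. These 5 lost their calls with the adipocyte score as a covariate, where the log2 fold change was 0.50 for Wnt2b (adjusted p = 0.535) and 0.39 for Axin2 (adjusted p = 0.346), and the adjusted p was 0.0881 for Fzd4, 0.191 for Sfrp1 and 0.163 for Wnt5a. The call of Wnt2b held in 2 of the 12 fits that left out a library and was lost without cell sheet replicate 1 (adjusted p = 0.0627). In the transforming growth factor beta and bone morphogenetic protein (BMP) list, 2 of 31 rose and 1 fell (9.68% called, beside 18.0% of all genes tested). The risen members were Tgfbr3, the co-receptor betaglycan, at 1.04 ± 0.24 (adjusted p = 0.0104) and the low gene Bmp7 at 1.86 ± 0.45 (adjusted p = 0.0144). Both lost their calls with the adipocyte score (adjusted p = 0.144 and 0.0877).

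Transcription factors of embryonic patterning rose in 14 of 70 cases (13 without cell sheet replicate 1) and fell in none. Tbx2 was at 26.3 to 32.9 CPM (median 27.9) and 9.22 to 19.4 CPM (median 14.1) without overlap (1.06 ± 0.15, adjusted p = 0.00114), and Sox17, a factor of arterial endothelium, rose by 0.87 ± 0.16 (adjusted p = 0.00321). Hoxd4 had the largest log2 fold change among them at 2.75 ± 0.76 (adjusted p = 0.0258), from medians of 4.51 against 0.557 CPM. With the adipocyte score as a covariate 4 of the 70 passed, Tbx2 among them (adjusted p = 0.0111) and Hoxd4 not (adjusted p = 0.599).

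Genes of fat cells and of lipid synthesis had large differences, carried by some treated hearts. Plin1, which coats the lipid droplets of fat cells, was at 0 to 193 CPM (median 85.3) in cell sheet and 0 to 4.38 CPM (median 0.262) in untreated MI libraries (6.34 ± 1.53, adjusted p = 0.0142). At least 1 library of each group was at 0 for Plin1, so that the fold depends on the prior count. Of 10 adipocyte markers tested 5 rose, and of 28 genes of lipid storage and synthesis 9. Fasn, the fatty acid synthase, was at 49.5 to 1209 CPM (median 160.1) against 44.1 to 67.5 CPM (median 47.4) (2.81 ± 0.73, adjusted p = 0.0195), and Scd, the stearoyl-CoA desaturase, at 1.36 to 638 CPM (median 53.5) against 0.829 to 12.3 CPM (median 3.22) (5.16 ± 1.31, adjusted p = 0.0179).

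Other genes of the same kind had treated libraries that were all above the untreated ones. Acaca, which makes malonyl-CoA, was at 38.2 to 236 CPM (median 66.8) in cell sheet and 29.1 to 32.5 CPM (median 30.6) in untreated MI libraries (1.63 ± 0.41, adjusted p = 0.0164). Gpd1, the glycerol phosphate dehydrogenase that fat and heart muscle share, was at 45.8 to 277 CPM (median 87.0) against 7.13 to 43.9 CPM (median 34.9) without overlap (2.10 ± 0.56, adjusted p = 0.0230), and the sham median was 86.2 CPM. Pc, pyruvate carboxylase, rose likewise (1.90 ± 0.44, adjusted p = 0.0110). The nuclear receptor Pparg rose by 1.63 ± 0.41 (adjusted p = 0.0167), with overlap, since cell sheet replicates 4 and 3 were at 5.74 and 6.02 CPM and untreated MI replicate 1 at 7.12 CPM. Adipoq, the adipocyte hormone, reached 233 CPM in a treated library but did not pass (4.70 ± 1.67, adjusted p = 0.0714), and Lpl and Fabp4, which endothelium, macrophages and muscle also use, had log2 fold changes of 0.43 and -0.40 (adjusted p = 0.492 and 0.413). The adipocyte score as a covariate ended the calls of this list, with log2 fold changes of 0.43 for Acaca (adjusted p = 0.443) and 0.16 for Fasn (adjusted p = 0.893). Plin1, Gpd1, Pparg and Adipoq are members of the list behind that score, so that what becomes of their values there follows from its construction. The lipid list had 9 genes higher and 1 lower without cell sheet replicate 1.

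Mast cell and antibody genes were higher in most treated libraries. Cpa3, the carboxypeptidase of mast cell granules, was at 2.67 to 124 CPM (median 77.7) in cell sheet and 4.15 to 22.9 CPM (median 12.3) in untreated MI libraries (2.45 ± 0.71, adjusted p = 0.0326). The protease gene Mcpt1l1, which may share reads with its close copies, rose by 2.64 ± 0.76 (adjusted p = 0.0307) and Ms4a2, a chain of the IgE receptor, by 1.91 ± 0.56 (adjusted p = 0.0333), so that 3 of 6 mast cell markers rose. Cell sheet replicate 3 was the exception, at 2.67 CPM for Cpa3 and 3.06 CPM for Mcpt1l1. Without cell sheet replicate 1 only Mcpt1l1 passed (adjusted p = 0.0461) and with the adipocyte score as a covariate its adjusted p was 0.670, and without the 3 libraries that held lung genes 0.0949. Igha, the constant region of IgA, and Jchain, which joins its units, rose by 4.61 ± 0.95 and 2.35 ± 0.62 (adjusted p = 0.00648 and 0.0209), with medians of 5.41 against 0.298 and 7.02 against 1.18 CPM. Their log2 fold changes with the adipocyte score were 2.34 and 0.51 (adjusted p = 0.144 and 0.447).

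Several inflammatory genes were lower in the treated border zone. Lyz2, the lysozyme of macrophages and neutrophils, was at 1211 to 3138 CPM (median 1461) in cell sheet and 1909 to 6902 CPM (median 4734) in untreated MI libraries. Only cell sheet replicate 1, at 3138 CPM, lay above the lower end of the untreated range, and the log2 fold change was -1.40 ± 0.32 (adjusted p = 0.0116), or -1.65 ± 0.30 without it. Trem2, a receptor of lipid-laden macrophages, was lower at medians of 40.4 against 104 CPM (-1.05 ± 0.28, adjusted p = 0.0219). Without the 3 libraries that held lung genes Trem2 did not pass (-0.88, adjusted p = 0.115). The other 12 macrophage markers did not pass, with Cd68 at 36.1 to 172 CPM (median 66.4) and 45.7 to 251 CPM (median 121) (-0.64 ± 0.41, adjusted p = 0.308). Csf1r was at 153 to 495 CPM in cell sheet and 186 to 329 CPM in untreated MI libraries, and Adgre1 at 50.3 to 164 and 47.7 to 207 CPM. Over the 14 markers 5 log2 fold changes were positive and 9 negative, with a median of -0.087. The share that passed was 14.3%, beside 18.0% of all genes tested.

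Of 38 chemokines and cytokines 5 fell (13.2%, beside 9.48% lower among all genes tested) and none rose. Cxcl16 was at 38.1 to 56.7 CPM (median 48.8) in cell sheet and 62.6 to 118 CPM (median 79.1) in untreated MI libraries, without overlap (-0.77 ± 0.14, adjusted p = 0.00391). Ccl12, a ligand of Ccr2 on monocytes, was lower (-1.23 ± 0.35, adjusted p = 0.0304), as was Ccl21, the chemokine of lymphatic vessels (-1.14 ± 0.34, adjusted p = 0.0360). Cxcl2, which draws neutrophils, was at 0.132 to 8.50 CPM (median 1.33) against 0.648 to 182 CPM (median 12.4) (-4.24 ± 1.36, adjusted p = 0.0490) and Il1a, a low gene, at medians of 0.361 against 2.09 CPM (-3.44 ± 1.05, adjusted p = 0.0390). The calls of Cxcl2 and Il1a held in 4 and that of Ccl21 in 3 of the 12 fits that left out a library. Ccl21 did not pass without cell sheet replicate 1 (adjusted p = 0.0590), where 6 of the 38 fell. Without the 3 libraries that held lung genes 1 of the 38 fell and 1 rose, and the adjusted p of Cxcl16 was 0.0161 and that of Lyz2 0.0749. None of 7 neutrophil markers passed in edgeR (2 at an unadjusted p under 0.05, and 2 called by DESeq2), although Lcn2 fell without cell sheet replicate 1 (-2.59, adjusted p = 0.0416). The summed level of all 9 listed was 125 CPM or more in cell sheet replicates 1 and 6 and untreated MI replicates 1 to 3 and 37.5 CPM or less in the other 7 libraries, and S100a9 was at 1.54 to 35.2 CPM (median 3.71) and 3.24 to 203 CPM (median 35.6) (-2.42 ± 1.08, adjusted p = 0.142).

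T cell and antigen presentation genes were low or lower as well, in animals that lack a thymus. Cd3d was at 0.265 to 0.657 CPM (median 0.391) in cell sheet and 0.416 to 3.54 CPM (median 1.36) in untreated MI libraries (-1.93 ± 0.50, adjusted p = 0.0200), and all 11 T and NK cell markers had a negative log2 fold change, of which 3 passed, or 2 without cell sheet replicate 1, where Klrd1 did not (adjusted p = 0.0575). Without the 3 libraries that held lung genes Cd3d no longer passed the count filter, and the adjusted p of Cd3g was 0.140 where it had been 0.0318. These levels correspond to few counts per library. The lectin-like receptor gene Klra1, from a family whose members resemble each other closely, was without overlap at medians of 2.35 against 4.97 CPM (-1.49 ± 0.40, adjusted p = 0.0240). Of 11 genes of the class II presentation list 3 fell, with RT1-DMa at 28.3 to 37.2 CPM (median 30.1) against 38.6 to 99.4 CPM (median 54.4) (-0.88 ± 0.20, adjusted p = 0.0103) and RT1-Db1 at -1.15 ± 0.34 (adjusted p = 0.0360, and 0.0625 without cell sheet replicate 1), while Cd74 did not pass (-0.69 ± 0.30, adjusted p = 0.135). The call of RT1-Db1 held in 4 of the 12 fits that left out a library. Without the 3 libraries that held lung genes the adjusted p was 0.136 for RT1-Db1 and 0.0228 for RT1-DMa. Sham replicate 5 held far more of these genes than any infarcted heart, with 43.5 CPM of Cd3d, so sham medians rather than ranges are of use here.

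Of all the lists, the ribosomal proteins had the highest share of calls. Of 74 cytosolic ribosomal protein genes 66 fell and none rose, with log2 fold changes between -1.25 and -0.34 and a median of -0.80, and 63 had no overlap between the groups. Together these genes took 2.60% to 3.97% of the gene counts of the cell sheet libraries, 4.90% to 6.68% of the untreated MI libraries and 2.84% to 4.85% of the sham libraries. The treated and the untreated libraries did not overlap, which gives the smallest p that 6 against 6 libraries allow in a 2-sided exact permutation test (p = 0.00216, adjusted over 8 library values p = 0.0173). The treated share was thus near the sham range, and the untreated share above it.

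Single members were below untreated MI in every treated library, and for some the treated level was also below sham. Rps27a, which encodes a ribosomal protein fused to ubiquitin, was at 317 to 553 CPM (median 452) in cell sheet, 882 to 1288 CPM (median 1003) in untreated MI and 516 to 997 CPM (median 657) in sham libraries. It fell by 1.25 on the log2 scale (SE 0.16, adjusted p = 0.000682) and had risen after infarction (0.56 ± 0.19, untreated MI over sham, adjusted p = 0.0308). Rps24 (-1.17 ± 0.14), Rps20 (-1.17 ± 0.17) and Rpl13a (-0.91 ± 0.16) were each lower in all 6 treated libraries (adjusted p = 0.000609, 0.00121 and 0.00248). Ribosomal protein genes have many processed copies in the rat genome, so that their counts may be split. Reads that mapped to several places made up 3.50% to 4.89% of the treated and 2.67% to 4.00% of the untreated libraries (2-sided exact permutation p = 0.0108, adjusted over the 8 library values p = 0.0433), and their part in the ribosomal counts was not tested. For the same reason the value of the pseudogene Rps10l1 (-1.27 ± 0.22) is uncertain. Rpl22l1, a paralog of Rpl22, fell by 1.29 (SE 0.15, adjusted p = 0.000605). Of the mitochondrial ribosomal proteins 32 of 73 fell and none rose, led by Mrps18c at 10.05 to 18.9 CPM (median 13.9) against 23.6 to 54.8 CPM (median 39.3) (-1.40 ± 0.21, adjusted p = 0.00120).

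Of 66 translation factors 22 fell and 6 rose (23 and 5 without cell sheet replicate 1). Among all genes tested 9.48% fell and 8.47% rose, so that the share of rises was near that of all genes and the share of falls above it. Eif2s2, a subunit of initiation factor 2, was at 85.1 to 106 CPM (median 96.1) and 145 to 183 CPM (median 149) (-0.69 ± 0.09, adjusted p = 0.000682), and the elongation factor subunit Eef1b2 fell by 0.83 (adjusted p = 0.00408). Eif4ebp2, a repressor of cap binding, was higher at 124 to 135 CPM (median 129) against 92.0 to 105 CPM (median 95.2) (0.43 ± 0.06, adjusted p = 0.00118), as was the scaffold Eif4g1 (0.40 ± 0.09, adjusted p = 0.00838). Their sham medians were 141 and 409.8 CPM, where the treated medians were 129 and 403 CPM.

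The proteasome, which degrades ubiquitin-tagged proteins, fell in 22 of 37 subunits and rose in none. Psmb4 was at 104 to 131 CPM (median 115) in cell sheet and 215 to 268 CPM (median 234) in untreated MI libraries, with sham at 227 to 328 CPM (median 270.2). Its log2 fold change of -1.04 ± 0.09 had the lowest adjusted p of all genes (0.000519), which Psma2 (-1.03 ± 0.10) also had. For both, unlike for the summed ribosomal share, the treated libraries were below the sham libraries as well as below the untreated ones. The subunits of the catalytic core fell in 13 of 17 cases (median -0.75) and those of the regulatory cap in 9 of 20 (median -0.27), a split looked at after the values were seen. Psmd1 and Psmd2, large subunits of the cap, had log2 fold changes of 0.11 ± 0.10 and 0.20 ± 0.07 (adjusted p = 0.449 and 0.0572).

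**Figure D4:**
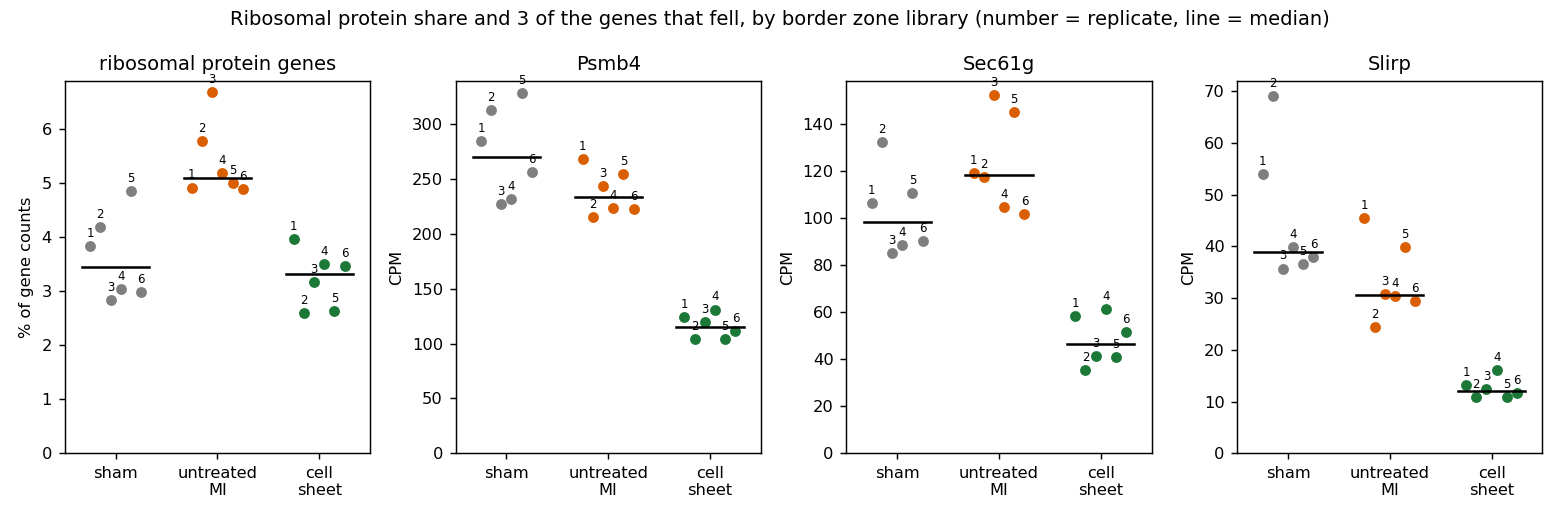
Share of gene counts on cytosolic ribosomal protein genes (percent, left) and levels of Psmb4, Sec61g and Slirp (CPM), all axes from 0, in each border zone library of the 3 groups, with replicate numbers and medians as lines. The cell sheet libraries lie below every untreated MI library in all 4 panels, at 2.60% to 3.97% against 4.90% to 6.68% for the ribosomal share, and below every sham library for the 3 genes.

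Single genes of other housekeeping machines were lower too. Sec61g was at 35.4 to 61.2 CPM (median 46.5) against 102 to 153 CPM (median 118) (-1.36 ± 0.16, adjusted p = 0.000594), Slirp at 10.8 to 16.2 CPM (median 12.04) against 24.4 to 45.5 CPM (median 30.6) (-1.41 ± 0.16, adjusted p = 0.000586), and Polr2k, a shared subunit of the RNA polymerases, fell by 1.33 (SE 0.21, adjusted p = 0.00176). None of these overlapped between the groups. Without cell sheet replicate 1 the counts were 69 of 74 ribosomal, 29 of 73 mitochondrial ribosomal and 22 of 37 proteasome genes lower, and with the adipocyte score as a covariate 45, 6 and 18. Without the 3 libraries that held lung genes they were 60, 45 and 24. Transcript length and RNA integrity were not analysed here.

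Respiratory chain genes were lower in part. Of 37 complex I subunits 9 fell and none rose (median -0.86), and of 43 subunits of complexes II to V 13 fell and none rose (median -0.59). Cox7b, a small subunit of cytochrome oxidase, was at 12.1 to 74.8 CPM (median 33.5) in cell sheet, 50.2 to 179.6 CPM (median 106) in untreated MI and 121 to 427 CPM (median 232) in sham libraries (-1.55 ± 0.43, adjusted p = 0.0267). Ndufa4 (-1.53 ± 0.44, adjusted p = 0.0311), Ndufa2 (-1.46 ± 0.33, adjusted p = 0.0102), Cox6c (-1.44 ± 0.37, adjusted p = 0.0197) and Atp5mg of the ATP synthase (-1.51 ± 0.39, adjusted p = 0.0188) were similar. In contrast Atp5f1b, the catalytic beta subunit of the same enzyme, was at 563 to 4699 CPM (median 3123) and 1185 to 4695 CPM (median 3580.4) (-0.19 ± 0.48, adjusted p = 0.827). No complex I subunit was without overlap. For Cox7b the lowest treated library was replicate 1 and the lowest untreated ones were replicates 2 and 3, the libraries poorest in cardiomyocyte markers within their groups, and the part of heart muscle content was not tested further. The counts without cell sheet replicate 1 were 7 complex I subunits and 11 of complexes II to V. The 5 subunits named as lower lost their calls with the adipocyte score as a covariate, with log2 fold changes of -1.18 for Cox7b (adjusted p = 0.131) and -1.23 for Ndufa2 (adjusted p = 0.0731). With the cardiomyocyte score Cox7b was at -1.38 (adjusted p = 0.00255), and 24 of the 37 complex I subunits fell.

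The markers of cardiomyocytes themselves did not pass the test. None of the 15 cardiomyocyte markers passed in edgeR, nor any of 18 genes of the tricarboxylic acid cycle or of 12 genes of the stress response (0, 0 and 1 at an unadjusted p under 0.05, and 0 in each called by DESeq2). Leaving out cell sheet replicate 1, Ogdh of the cycle rose (0.91, adjusted p = 0.0416), as did Xirp1 and Flnc of the stress response (1.48 and 1.03, adjusted p = 0.0496 and 0.0346). Of 27 genes of fatty acid oxidation 2 rose (7.41%, beside 8.47% of all genes tested). These were Slc27a1 and Cpt1a, at 0.51 ± 0.15 and 0.29 ± 0.09 (adjusted p = 0.0321 and 0.0487), and Acsl1 and Ppara passed as well without cell sheet replicate 1 (adjusted p = 0.0432 and 0.0353). The calls of Slc27a1 and Cpt1a held in 6 and 2 of the 12 fits that left out a library. Myh6 was at 12.6 to 5422 CPM (median 2731) in cell sheet and 270.0 to 2033 CPM (median 1635) in untreated MI libraries (0.92 ± 1.00, adjusted p = 0.570), and Nppa, the atrial natriuretic peptide, was at medians of 3302 against 4907 CPM (-0.76 ± 0.96, adjusted p = 0.627). Cell sheet replicate 1, with 12.6 CPM of Myh6 and 12.1 CPM of Nppa, widened the range, and without it the log2 fold change of Myh6 was 1.18 ± 0.76 (adjusted p = 0.300).

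A few genes of excitation and energy use rose. Gja1, connexin 43 of the gap junctions, was at 341 to 734 CPM (median 516) in cell sheet, 244 to 351 CPM (median 294) in untreated MI and 213 to 776 CPM (median 641) in sham libraries (0.83 ± 0.17, adjusted p = 0.00717). Cell sheet replicate 1 was the only treated library inside the untreated range. Cacna1c, the pore of the L-type calcium channel, rose by 1.42 ± 0.36 (adjusted p = 0.0172), with medians of 77.0 against 32.9 CPM and 91.4 CPM in sham. Hk2, hexokinase 2, was at 67.6 to 96.3 CPM (median 76.5) against 35.3 to 48.0 CPM (median 43.6) without overlap (0.92 ± 0.12, adjusted p = 0.000730). The other of the 26 glycolysis genes that rose was Pfkfb1 (2.06 ± 0.66, adjusted p = 0.0481, and 0.0691 without cell sheet replicate 1). With the adipocyte score as a covariate the log2 fold change of Pfkfb1 was -0.40 (adjusted p = 0.596). Its call held in 3 of the 12 fits that left out a library. The 2 genes are 7.69% of the glycolysis list, beside 8.47% higher among all genes tested. Without cell sheet replicate 1, 2 genes of this list rose and 1 fell.

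Antioxidant, heme and iron genes fell in 7 of 26 cases and rose in 1, or 3 and 1 with the adipocyte score as a covariate. Prdx1, a peroxiredoxin, was at 184 to 254 CPM (median 203) in cell sheet and 349 to 441 CPM (median 377) in untreated MI libraries without overlap (-0.88 ± 0.10, adjusted p = 0.000586). Thioredoxin (Txn1, -1.14 ± 0.20, adjusted p = 0.00300), the glutathione peroxidases Gpx4 (-1.02 ± 0.21, adjusted p = 0.00656) and Gpx1 (-0.90 ± 0.21, adjusted p = 0.0121) and the ferritin heavy chain Fth1 (-0.89 ± 0.28, adjusted p = 0.0470) were lower too. The call of Fth1 held in 3 of the 12 fits that left out a library. Without the 3 libraries that held lung genes its log2 fold change was -0.47 (adjusted p = 0.251). Catalase (Cat) was the member that rose, at 103 to 179 CPM (median 156) against 54.8 to 85.1 CPM (median 68.2) and 61.4 to 205 CPM (median 141) in sham (1.11 ± 0.16, adjusted p = 0.00107). Txn1 was highest among the treated libraries in replicate 1, at 192 CPM.

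By size alone, among genes with a mean of at least 1 log2 CPM and no overlap, the largest rises were those of the long noncoding RNA LOC103693572 (2.89 ± 0.50, adjusted p = 0.00264), of the cadherin Cdh6 and of the phosphodiesterase Pde1b, followed by Gpd1, Pc, Slc22a3, Acaca, Extl1, Notch3 and Magi2. Cdh6 was at 1.94 to 7.82 CPM (median 5.42) in cell sheet and 0.467 to 1.25 CPM (median 0.754) in untreated MI libraries (2.55 ± 0.40, adjusted p = 0.00165), and Pde1b was at 3.30 to 13.9 CPM (median 7.89) against 1.13 to 2.82 CPM (median 1.66) (2.15 ± 0.36, adjusted p = 0.00246). Slc22a3, a transporter of organic cations, and Extl1, a glycosyltransferase, were at medians of 7.18 against 1.91 and 6.12 against 2.13 CPM, beside sham medians of 11.1 and 6.35 CPM. Magi2, a junction scaffold, rose by 1.5 ± 0.24 (adjusted p = 0.00189). The largest falls were those of Klra1, Slirp, Mrps18c, Sec61g, Polr2k, Rpl22l1, Rps10l1 and the loci RGD1563400 (-1.29 ± 0.28, adjusted p = 0.00827), LOC685085 (-1.27 ± 0.16, adjusted p = 0.000694) and LOC100910678 (-1.26 ± 0.19, adjusted p = 0.00122), which carry no gene name here.

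The untreated border zone differed from sham in 6517 of 15641 genes (41.7%), and this comparison shares the untreated libraries with the one above. It includes sham replicate 5 and was not repeated without that library. Side by side, Col1a1 was 3.33 ± 0.34 higher in untreated MI than in sham (log2 ± SE, adjusted p = 0.000111), Col6a1 1.41 ± 0.22 (adjusted p = 0.000882) and Fbn2 2.95 ± 0.38 (adjusted p = 0.000355), with values for cell sheet over untreated MI of 0.83, 1.22 and 1.56. For Abcc9 the values were -1.12 ± 0.31 (adjusted p = 0.0133) and then 1.30, for Gja1 -0.98 ± 0.26 (adjusted p = 0.0115) and 0.83, and for Cat -0.98 ± 0.25 (adjusted p = 0.0108) and 1.11. For Psmb4 they were -0.19 ± 0.12 (adjusted p = 0.195) and -1.04. Because the untreated libraries enter both differences with opposite sign, no relation between the columns was tested.

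Whether the effect was particular to the border zone was asked by comparing it with the effect in the other zones of the same hearts. No gene passed for a difference of the effect between border and infarct zone (0 of 17275, or 0%, lowest adjusted p 0.186, 2012 genes at an unadjusted p under 0.05) or between border and remote zone (0 of 16784, or 0%, lowest adjusted p 0.0971, 3430 genes at an unadjusted p under 0.05). These tests were made in edgeR with each animal as a block, and 216 genes passed for the remote zone when the animal of cell sheet replicate 1 was left out and 84 without that of untreated MI replicate 6. On simulated data they recovered 32% of 2-fold differences for the infarct and 45% for the remote zone, so that differences of that size can be missed. Within the infarct zone alone no gene passed in edgeR, with 1341 genes at an unadjusted p under 0.05, and within the remote zone 2623 did. Notch3 had log2 fold changes of 1.53 ± 0.25 in the border, 0.81 ± 0.22 in the infarct and 0.97 ± 0.19 in the remote zone. Those of Col6a1 were 1.22 ± 0.34, 0.82 ± 0.27 and -0.08 ± 0.39, and those of Psmb4 -1.04 ± 0.09, -0.30 ± 0.15 and -0.40 ± 0.11. Rps27a had -1.25 ± 0.16, 0.01 ± 0.17 and -1.01 ± 0.17, and for the difference between border and infarct zone of -1.23 ± 0.28 the adjusted p was 0.186. Hk2 and Cat had values in the remote zone (1.20 ± 0.12 and 1.27 ± 0.27) beside 0.92 and 1.11 in the border zone, whereas Fzd4 and Cdh5 had -0.05 ± 0.11 and 0.07 ± 0.13 there, and the difference from the border zone had an adjusted p of 0.0971 and 0.127. The groups of the 3 zones come from the same animals.

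**Figure D5:**
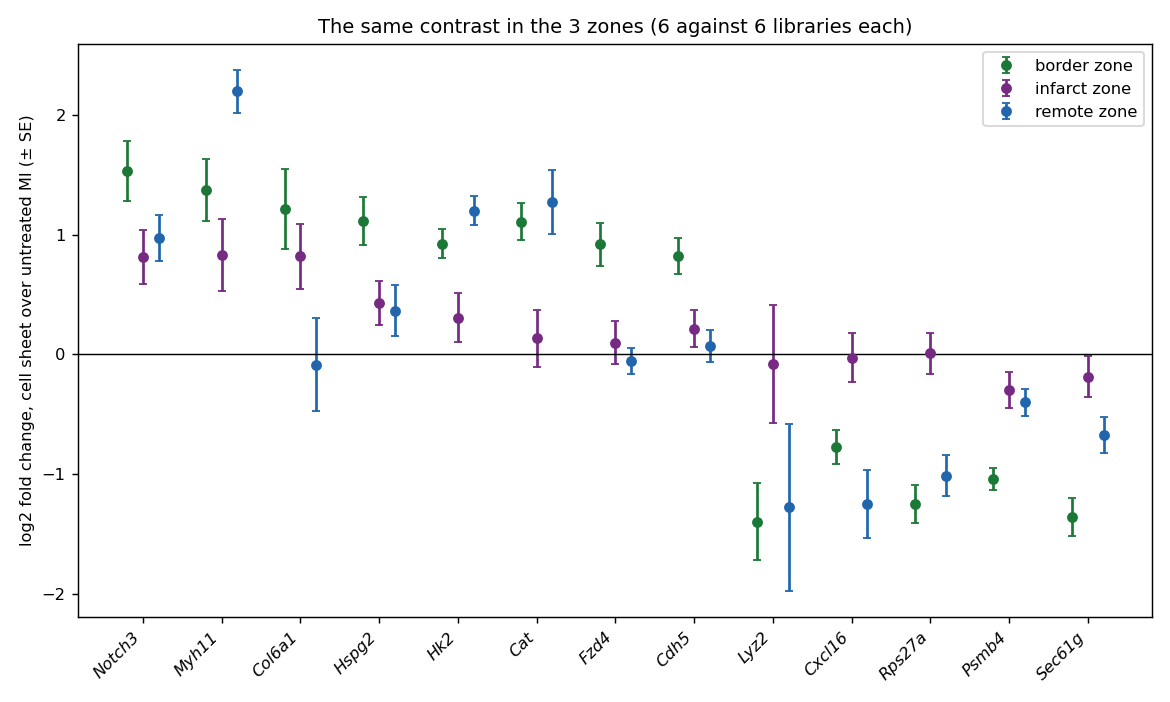
Log2 fold change of cell sheet over untreated MI (vertical axis, points with SE as bars) for 13 genes in the border, infarct and remote zone, each from 6 against 6 libraries. In the border zone Notch3 is at 1.53 and Rps27a at -1.25. Col6a1 is near 0 in the remote zone (-0.08), Rps27a is near 0 in the infarct zone (0.01), and the difference between zones passed for none of these genes.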

How the data were processed

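RNA was extracted from flash-frozen tissue of the border zone, and polyadenylated RNA was sequenced. The authors aligned paired reads with STAR to mRatBN7.2, the build their processing notes name, and deposited raw counts per gene for each library. Which program counted the reads, and whether it used strand, is not given in the sources used here. The 5 summary lines of each file (unassigned reads, 17.1% to 27.9% of the reads listed in the 12 libraries) entered neither library sizes nor tests. The study itself tested with DESeq2.

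From the deposited counts of 40319 genes, edgeR 4.0.16 (R 4.3.3, limma 3.58.1) was used with TMM factors, filterByExpr and the quasi-likelihood F test on the 12 border zone libraries, with Benjamini-Hochberg adjustment over all genes tested and a threshold of 0.05. Whether the effect differed between zones was tested by an interaction term, blocked on the animal (24 libraries). CPM used TMM factors over the 54 libraries, and log2 CPM a prior count of 2. Single library values were compared by exact permutation. Counts of 30 pairs of libraries within groups differed beyond sampling noise, so none was treated as a repeat.

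Named genes were the 9 genes named by the study, the 10 largest rises and 10 largest falls without overlap and with a mean of at least 1 log2 CPM, and, in each of 61 lists (21 of markers, 40 of processes), the 3 called members that changed most, the member with the highest level and the first 3 markers. The comparison, the lists and the tests were chosen with earlier results of these data known. The alternatives were DESeq2 1.42.0, limma-voom, other filters and scalings, covariates, a replicate block, all groups in a fit and leaving out libraries. On data simulated for this comparison (16021 genes) the test recovered 60% of 2-fold and 91% of 4-fold changes, with 5 false calls. The interaction tests recovered fewer, with 32% of 2-fold and 89% of 4-fold changes for the infarct zone and 45% and 84% for the remote zone. In each simulation changes were put into 200 genes with a mean of at least 1 log2 CPM. Counts were drawn independently for each gene, without animal effects or libraries that differ in tissue makeup. The real libraries do differ in makeup, so these shares and false calls may not hold for them.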

Additional observations from a re-analysis of the deposited data

Results flagged for a closer look

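In groups of 6 libraries, 30 of 324 values tested (9.26%, where chance flags about 5%) had a highest or lowest library set apart from the other 5 by more than Dixon's limit, and 11 of them were in cell sheet replicate 1. That library was low for Myl2 (22.0 CPM), Tnnt2 (35.7 CPM), Mb (18.5 CPM), Fabp3 (5.33 CPM), Xirp1 (2.32 CPM), Nppa (12.1 CPM), Col6a6 (32.3 CPM) and the mean of the cardiomyocyte list (3.80 log2 CPM), and high for Pdgfb (88.5 CPM), RT1-DMa (37.2 CPM) and Txn1 (192 CPM).

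Cell sheet replicate 3 was low for Ndnf (1.26 CPM), Wnt2b (0.922 CPM), Axin2 (3.59 CPM), Cpa3 (2.67 CPM), Mcpt1l1 (3.06 CPM), Igha (0.0485 CPM), the mean of the mast cell list (0.71 log2 CPM) and that of the mesothelial list (1.84 log2 CPM), and high for RT1-Db1 (187 CPM). Cell sheet replicate 2 was low for Klra1 (0.589 CPM), replicate 6 high for Slc22a3 (20.6 CPM), and replicate 4 high for Sftpc (98.5 CPM) and the mean of the lung list (4.23 log2 CPM).

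Among the untreated libraries, replicate 1 was low for Col6a3 (136 CPM), Col4a1 (478 CPM) and Col4a2 (389 CPM) and high for Eif4ebp2 (105 CPM), replicate 3 was high for Rpl13a (2222 CPM), and replicate 5 for Eif2s2 (183 CPM).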

How the results depend on the processing

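The count of 2922 genes (1379 higher, 1543 lower) was within 1.5 times of its value under DESeq2 (3815), voom (2798), RLE factors (2889), no TMM factors (2847), both filters (2110 and 2957), all 9 groups in a fit (3127) and without the 3 libraries with lung genes (2505, chosen after seeing the data). It moved to 1313 (607 higher, 706 lower) with the adipocyte score, to 4777 (2238 and 2539) with the cardiomyocyte score and to 435 (247 and 188) with a log2 fold change above 1, the last by construction. For the others the cause was not tested. Leaving out 1 library gave 1941 to 3083 calls (932 to 1512 higher, 1009 to 1628 lower), lowest without cell sheet replicate 2. The difference between zones gave 0 to 0 calls for the infarct and 0 to 216 for the remote zone, with 84 without untreated MI replicate 6. With the replicate number as a block 1214 genes passed (541 higher, 673 lower). Correlations of same-numbered libraries, as deviations from their group means, were -0.22, -0.23, -0.53, 0.36, 0.31 and -0.34. Of 6 libraries 1 correlated best with its own number. The libraries also differ in tissue makeup, so these correlations cannot decide whether the numbers pair the hearts.

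Of 152 genes in the text that were tested, 120 passed. All that changed sign had not passed, except Cidec, Scd and Pfkfb1 with the adipocyte score (-0.31, -0.22 and -0.40), where Cidec and Adipoq are members of that score's list. That score also gave Myl2 0.068, Tnnt2 0.23, Cxcl12 -0.11, Adam12 -0.22, Postn 0.071, Adipoq -1.14, Atp5f1b 0.15 and Nppa 0.37, and the cardiomyocyte score Atp5f1b 0.011. Voom gave Myh6 -0.37, Acta2 0.16 and Postn 0.087, and the block Acta2 0.094 and Postn 0.093. Over the fits that left out 1 library, Tnnt2 ranged from -0.52 to 0.067 and Atp5f1b from -0.40 to 0.033, both highest without cell sheet replicate 1, and Acta2 from -0.28 to 0.18 and Postn from -0.26 to 0.17, both highest without untreated MI replicate 3. Without the lung libraries Acta2 was 0.40, Vegfa -0.15 and Postn 0.50. The cause of these changes was not tested. Lost calls were most numerous with the adipocyte score (69 of 152, beside the sign changes above) and the block (63 of 152).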

Other observations

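Among lists not described above, Adra2a, the alpha-2A adrenergic receptor, was at 0.485 to 48.9 CPM (median 19.8) in cell sheet and 0.535 to 3.65 CPM (median 1.24) in untreated MI libraries (3.68 ± 0.83, log2 ± SE, edgeR adjusted p = 0.00991), with cell sheet replicate 3 at 0.485 CPM as the exception. Maff, an immediate early transcription factor, was lower at medians of 19.6 against 35.1 CPM (-1.01 ± 0.24, adjusted p = 0.0138). Higd1a, a hypoxia-induced protein of mitochondria, was at 18.3 to 58.1 CPM (median 40.0) against 49.9 to 152 CPM (median 99.0) (-1.38 ± 0.31, adjusted p = 0.0100). The interferon-stimulated gene Ifit3 was lower (-1.74 ± 0.55, adjusted p = 0.0454), a call held in 3 of 12 fits that left out a library, and 2 of 27 interferon-stimulated genes fell in all, or 1 without cell sheet replicate 1. The 2 genes are 7.41% of that list, beside 9.48% lower among all genes tested.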
